A study of Mus musculus with 12 samples.

Results

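The fatty acid elongases and desaturases described here are 10 genes taken by name, Elovl1, Elovl3, Elovl4, Elovl5, Elovl6, Elovl7, Fads1, Fads2, Fads3 and Scd2, of the 53379 gene IDs in each count file. All 10 were among the 15208 genes that passed the filter on low counts and were tested. RNA was sequenced from the interscapular brown adipose tissue of C57BL/6 mice at 12 weeks of age, kept on standard chow and killed at zeitgeber time 9. The mice were wild type littermates (WT) or carried the genotype labelled Cdk7 bKO (KO), in which the gene for the kinase of the general transcription factor TFIIH is deleted, and they were sampled at room temperature or after 6 h of cold exposure with food present. Each of the 4 groups had 3 libraries, and each library was a pool of 500 ng of RNA, 250 ng from each of 2 mice of 1 genotype and 1 condition. The sources used here do not give the promoter that drives the deletion, the cells it reaches, the sex of the mice or the temperature of the cold. Levels are CPM, counts scaled to a common library size, after adjustment by TMM factors.

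Elongases of the ELOVL family carry out the first, rate-limiting condensation by which the endoplasmic reticulum adds a pair of carbons to a fatty acyl chain, and desaturases put double bonds into it. ELOVL6 lengthens palmitate, ELOVL1, ELOVL3 and ELOVL7 act on longer saturated and monounsaturated chains, ELOVL5 acts on polyunsaturated chains and ELOVL4 makes the very longest ones. FADS2 and FADS1 alternate with ELOVL5 in the synthesis of arachidonic and docosahexaenoic acid, and SCD1 and SCD2 make monounsaturated from saturated acids. In brown fat, Elovl3 is long known as a gene induced by cold, and newly made and lengthened acids enter the triglyceride and phospholipid that the tissue turns over during heat production.

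Gene counts per library ran from 27609717 to 36792555. Cdk7 stood at 15.1 to 18 CPM in the 6 WT pools and at 4.35 to 5.77 CPM in the 6 KO pools, and the part of the gene that was deleted is not given in the sources used here. Ucp1, the uncoupling protein that defines brown adipocytes, was high everywhere, with 6630 to 8500 CPM in WT at room temperature, 14800 to 17500 in WT in the cold and 3610 to 4390 in the KO at either temperature. Markers of skin and sebaceous gland, which express several of these enzymes, summed to 3.20 to 10.8 CPM, and Krt5, Krt14, Dsg3 and Awat1 of that list had no count in any library. The p-values below measure the spread between these pools. Statements that pools lay apart or overlapped describe the values of a gene. The share of all tested genes whose pools lay apart is not given here.

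Per kilobase of merged exon, Elovl6 was the most abundant of the 10 in every group by its mean and Elovl7 the least. The order by mean CPM per kilobase in WT at room temperature was Elovl6 at 165 ± 14.4 (SD, n = 3), Elovl3 at 50.9 ± 14.7, Elovl5 at 35.9 ± 6.46 and Scd2 at 25.5 ± 14.6. Below them came Fads3 at 3.20, Elovl1 at 3.08, Fads1 at 1.83, Fads2 at 1.35, Elovl4 at 0.141 and Elovl7 at 0.0637 CPM per kilobase. The pools of Elovl3 and Elovl5 overlapped there, as did those of Elovl5 and Scd2, while every pool of Elovl6 lay above them. In the cold the pools of Elovl3 and Elovl6 overlapped in both genotypes. Elovl3 per kilobase was 20.4 to 40.2% of Elovl6 per kilobase in WT at room temperature and 84.5 to 93.0% in WT in the cold, and in the KO it was 28.2 to 58.0% and 65.3 to 116%. Scd1, which is the main stearoyl-CoA desaturase of fat and no member of the set, exceeded all of them with 5540 to 9630 CPM per kilobase, and its counts were 2.98 to 4.33% of all gene counts of a library.

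**Figure D1:**
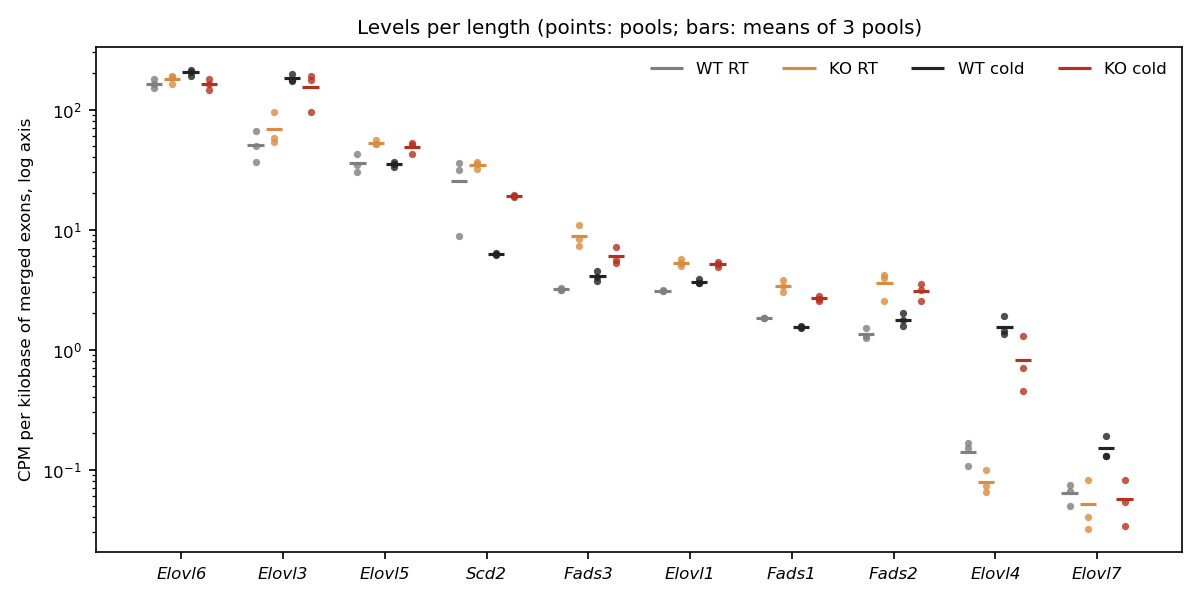
Levels of the 10 genes as CPM per kilobase of merged exons on a log axis, ordered by the mean in WT at room temperature; points are pools and bars are means of 3 pools. Elovl6 stands highest at 146 to 214, Elovl3 reaches 174 to 198 in the cold WT pools, and Elovl4 and Elovl7 lie at the bottom at room temperature.

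The genes lie in 3 places on chromosome 19 and singly elsewhere (GRCm38). Fads3 (chr19:10041569-10060110), Fads2 (chr19:10062765-10101746) and Fads1 (chr19:10182888-10196877) form 1 cluster, with Fads2 on the minus strand between its neighbours on the plus strand. Scd2 (chr19:44293674-44306864) lies near Scd1 (chr19:44394455-44407879), and Elovl3 (chr19:46131897-46135694) lies further along the same chromosome. Elovl4 (chr9:83778692-83806277) and Elovl5 (chr9:77917364-77984519) share chromosome 9, and Elovl1 (chr4:118428093-118432953), Elovl6 (chr3:129532355-129638495) and Elovl7 (chr13:108214404-108285683) stand alone. Some exon sequence is not unique to its gene. Of the 50-base windows of its transcripts, Scd2 shares 3.97% with other genes, Scd1 and Scd3 first among them, and Elovl6 shares 3.98%, mostly with the pseudogene Gm11295. Elovl1 overlaps Cdc20 by 53 exon bases and Elovl3 overlaps Pitx3 by 10, on opposite strands, Elovl6 overlaps an antisense gene by 34, and Scd2 overlaps Mir5114 by 61 on its own strand. Values of these 4 genes are uncertain to that extent, since reads from the overlaps may be shared or left out.

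**Figure D2:**
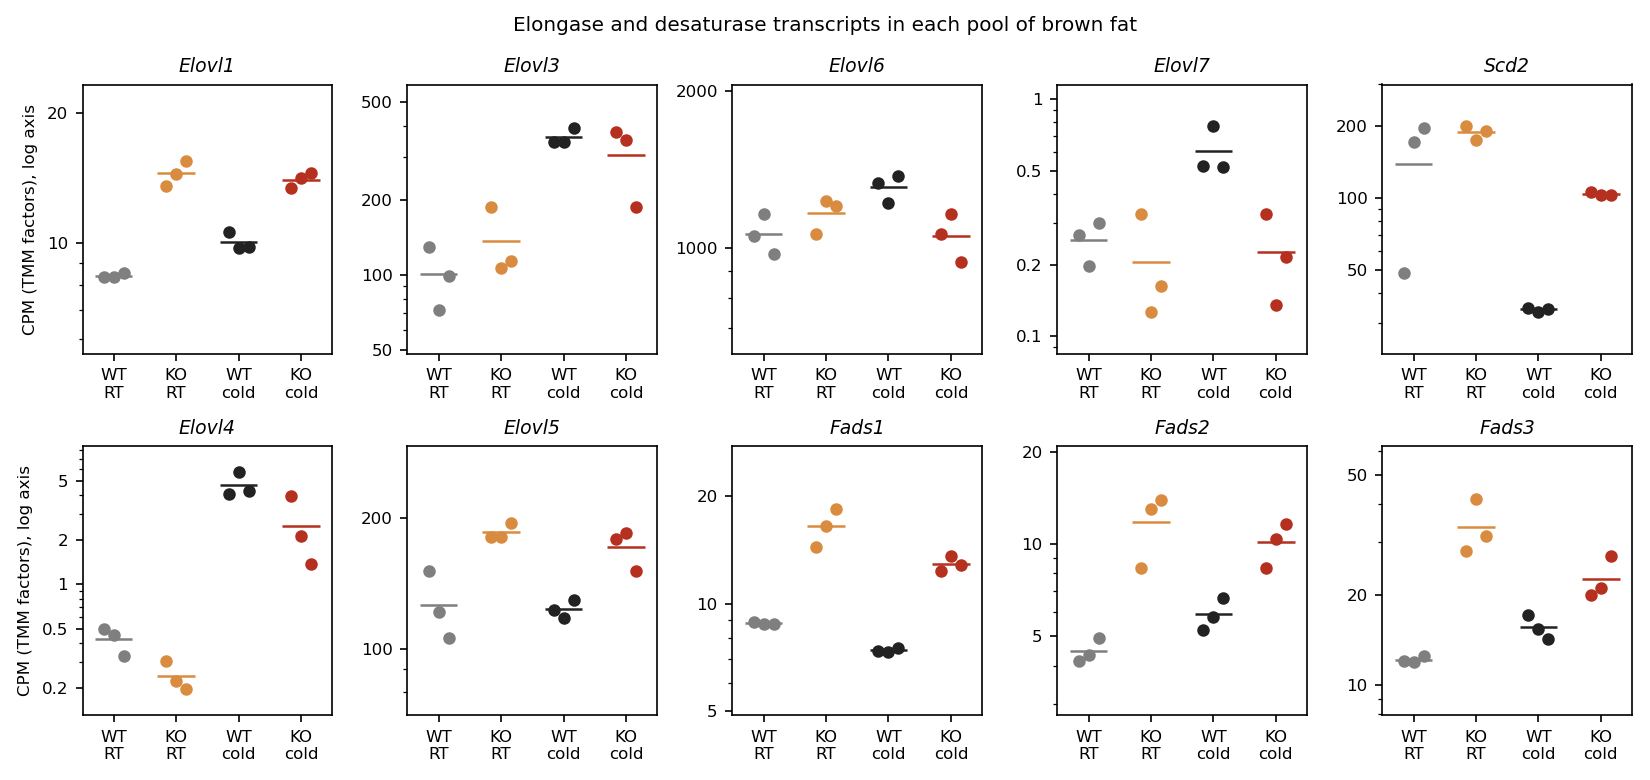
CPM of each gene in the 12 pools on log axes that each span the gene's own range; points are pools and horizontal lines are means of the 3 pools of a group. The 3 Fads genes and Elovl1 sit higher in every KO pool than in every WT pool at the same temperature. Elovl4 rises with cold in both genotypes. Elovl3 rises in WT, and in the KO its groups meet at 188 CPM in the cold and 189 at room temperature. WT replicate 1 at room temperature lies apart for Scd2 at 48.4 CPM.

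The first question was how the deletion of Cdk7 changed the set at room temperature. The 3 Fads desaturases and the elongases Elovl1 and Elovl5 rose in the KO. Fads3 was 2.77-fold higher, Fads2 2.62-fold, Fads1 1.86-fold, Elovl1 1.72-fold and Elovl5 1.47-fold. These were 5 of 10 genes called higher, where 19.3% of all tested genes were called higher and 21.0% lower. The median log2 fold change of the 10 was 0.50, and that of all genes was 0.00. No member was called lower by edgeR, by DESeq2 or by limma voom, and none was lower at an unadjusted p under 0.05.

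Among the desaturases, Fads1, the delta-5 desaturase, stood at 8.89, 8.79 and 8.79 CPM in the WT pools and at 14.4, 16.5 and 18.4 in the KO pools. Fads2, the delta-6 desaturase that opens the pathway to long polyunsaturated acids, stood at 4.14, 4.32 and 4.93 CPM against 8.35, 13.0 and 13.9. Fads3, a relative that desaturates sphingoid bases, stood at 12.0, 11.9 and 12.5 CPM against 27.9, 41.7 and 31.4. All KO pools lay above all WT pools for each of the 3 genes, and KO replicate 4 was the lowest of the KO pools each time. The log2 fold changes were 0.89 ± 0.10 (SE) for Fads1 (adjusted p = 5e-06), 1.39 ± 0.18 for Fads2 (adjusted p = 2.1e-05) and 1.47 ± 0.14 for Fads3 (adjusted p = 2e-06) by the quasi-likelihood test of edgeR, adjusted by Benjamini-Hochberg over all genes.

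Elovl1, which lengthens saturated acids to the very long chains of sphingolipids, stood at 8.32, 8.31 and 8.52 CPM in WT and at 13.5, 14.4 and 15.5 CPM in the KO. Elovl5, the elongase of the polyunsaturated pathway, stood at 151, 122 and 106 CPM in WT and at 181, 181 and 195 in the KO. Neither gene's groups overlapped, and the WT pools of Elovl5 spread far more widely than its KO pools. The log2 fold changes were 0.78 ± 0.09 for Elovl1 (adjusted p = 9e-06) and 0.56 ± 0.11 for Elovl5 (adjusted p = 0.00091). The 5 calls held under every alternative setting and with each library left out in turn.

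The remaining elongases and Scd2 did not pass. Elovl6 stood at 1050, 1160 and 970 CPM in WT and at 1060, 1230 and 1200 in the KO, a log2 difference of 0.14 ± 0.10 (adjusted p = 0.30). Elovl3 ran from 72.3 to 130 CPM in WT and from 107 to 189 in the KO (log2 0.44 ± 0.33, adjusted p = 0.32). The groups of both genes overlapped. Elovl6 was called higher with libraries scaled by totals alone (0.35, adjusted p = 0.044), and Elovl3 with no filter on low counts (0.42, adjusted p = 0.00064). Elovl4 and Elovl7 were near the floor of the assay at room temperature, with 6 to 16 and 4 to 12 counts per pool, and their log2 differences were -0.79 ± 0.46 (adjusted p = 0.18) and -0.27 ± 0.47 (adjusted p = 0.67). Scd2, a stearoyl-CoA desaturase known from brain and from cells in culture, stood at 48.4, 172 and 197 CPM in WT and at 200, 176 and 191 in the KO. WT replicate 1 was far below every other pool at room temperature, and the other WT pools lay within or close to the range of the KO pools. The log2 difference was 0.44 ± 0.41 (adjusted p = 0.43), and 0.03 without WT replicate 1 (adjusted p = 0.82). It was called with no filter on low counts (0.41, adjusted p = 0.00051).

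The promoters of the genes that rose together in the KO are shown to let their sequence be compared. Of the 10 genes, 7 matched RefSeq's table of promoters (GRCm38.p6), with 8 start sites. The 250 bases before RefSeq's start of the 4 genes among them that rose are given below 5′ to 3′ on the gene's strand, for Elovl1 the first of 2 start sites. The Fads2 window lies mostly inside the gene as positioned above, whose start on the minus strand is at 10101746. It is therefore not the sequence before that annotated start. Capitals mark the CCAAT box (CCAAT), the GC box (GGGCGG) and the E-box (CACGTG) on either strand.
Elovl1 (chr4:118427843-118428092, plus strand): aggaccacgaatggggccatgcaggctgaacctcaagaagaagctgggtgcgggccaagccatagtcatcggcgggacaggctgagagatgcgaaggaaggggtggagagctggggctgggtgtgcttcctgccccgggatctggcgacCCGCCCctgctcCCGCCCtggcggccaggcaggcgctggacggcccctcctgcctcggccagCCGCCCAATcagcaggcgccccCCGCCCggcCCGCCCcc
Elovl5 (chr9:77917115-77917364, plus strand): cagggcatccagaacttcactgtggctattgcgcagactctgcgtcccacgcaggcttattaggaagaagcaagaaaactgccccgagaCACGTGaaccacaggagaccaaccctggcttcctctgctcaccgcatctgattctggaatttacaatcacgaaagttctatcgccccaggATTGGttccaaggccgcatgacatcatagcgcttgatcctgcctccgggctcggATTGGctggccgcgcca
Fads2 (chr19:10101504-10101753, minus strand): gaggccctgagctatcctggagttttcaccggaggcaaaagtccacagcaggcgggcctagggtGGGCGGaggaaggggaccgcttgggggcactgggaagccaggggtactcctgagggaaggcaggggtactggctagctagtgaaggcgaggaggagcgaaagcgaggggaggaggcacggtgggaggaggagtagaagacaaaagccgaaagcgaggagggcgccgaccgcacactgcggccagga
Fads3 (chr19:10041298-10041547, plus strand): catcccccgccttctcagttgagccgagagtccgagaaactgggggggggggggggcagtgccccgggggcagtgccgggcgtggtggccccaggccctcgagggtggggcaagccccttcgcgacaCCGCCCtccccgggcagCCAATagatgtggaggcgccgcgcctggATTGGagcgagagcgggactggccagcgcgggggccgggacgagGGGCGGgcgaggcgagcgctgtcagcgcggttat
Elovl1 held 5 GC boxes and, at position -35 from the start, a CCAAT box that shares bases with the GC box at -39. Elovl5 held CCAAT boxes at -71 and -17 and the E-box at -161, and Fads3 held CCAAT boxes at -106 and -78 and 2 GC boxes. In Fads2 a single GC box at -186 was found. Over all 8 windows, 6 held a GC box, 3 a CCAAT box and 1 an E-box, and these motifs were in 32.7%, 33.8% and 6.02% of 32851 promoters of the same length. The sterol response motif TCACNCCAC was in 1.05% of promoters and the cAMP response motif TGACGTCA in 1.55%, and none of the 8 windows held either on these letters.

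Related genes moved as follows at room temperature, where 19.3% of all tested genes were called higher and 21.0% lower. Of 6 other desaturases tested, 4 rose, namely Degs1 (log2 0.44), Fads6 (1.03), Scd3 (0.97) and Degs2 (1.31), of which Degs1 makes ceramide from dihydroceramide. Scd3 shares transcript windows with Scd1, which is far more abundant, and Degs2 overlaps Evl on the other strand, so both are uncertain, and Scd3 lost its call without the 2 libraries richest in skeletal muscle markers (adjusted p = 0.051). Scd1 itself stood at 35600 to 43800 CPM in WT and at 28100 to 39300 in the KO (log2 -0.20, adjusted p = 0.27). Of 6 partners that complete the elongation cycle, 3 rose and 2 fell. The ketoacyl reductase Hsd17b12 rose by 0.42 and the enoyl reductase Tecr by 0.74 on the log2 scale, while the dehydratase Hacd3 fell by 0.38. Of 5 electron donors of desaturation, 2 rose, Cyb5r1 (0.36) and Cyb5r3 (1.05, with an overlapping gene on the other strand), and 1 fell, Cyb5r4 (-0.37). Hacd3 and Cyb5r4 lost their calls when libraries were scaled by their totals alone (log2 -0.17 and -0.16).

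Among 9 genes that supply fatty acid synthesis, 3 rose and 1 fell at room temperature, with a median log2 fold change of 0.32. Malic enzyme Me1, a source of NADPH, rose from 281 to 413 CPM in WT to 796 to 1040 CPM in the KO (log2 1.39, adjusted p = 0.00039), and its exons overlap A330041J22Rik. Of 14 regulators of the SREBP, LXR and ChREBP systems, 2 rose and 1 fell. Both are smaller shares than those of all tested genes, 19.3% called higher and 21.0% lower. Mylip, an LXR target that degrades lipoprotein receptors, rose by 0.89 on the log2 scale. Srebf1, the gene of the lipogenic factor SREBP1, had a log2 difference of -0.28 (adjusted p = 0.43), and it was called lower without KO replicate 4 (log2 -0.61, adjusted p = 0.041). Of 11 peroxisomal genes for very long chains, 5 fell and 1 rose, with the transporter Abcd3 at log2 -0.74. Of 8 enzymes that exchange acyl chains of phospholipids, 3 rose and 2 fell, with Lpcat4 at 0.91 and Lpcat2 at 1.17 among the rises and Agpat3 at -0.59 among the falls. Agpat3, Lpcat2, Srebf1 and, below, Mlxipl and Nr1h3 overlap exons of another gene, and their values are uncertain.

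Markers of other cell types moved with genotype. Of all tested genes, 19.3% were called higher and 21.0% lower at room temperature, and 25.9% and 27.8% in the cold. Summed macrophage markers ran from 75.0 to 100 CPM in WT and from 248 to 348 in the KO at room temperature, and from 109 to 116 and 291 to 402 in the cold, with 11 of 12 markers called higher at both temperatures. Endothelial markers summed to 514 to 621 CPM in WT and 766 to 775 in the KO at room temperature (7 of 9 higher), and fibroblast and preadipocyte markers to 345 to 413 and 486 to 554 (4 of 9 higher). Smooth muscle and pericyte markers summed to 554 to 604 CPM in WT and 692 to 778 in the KO (6 of 8 higher, 1 lower). Lymphocyte markers were low, at 2.28 to 3.02 CPM in WT and 4.04 to 5.15 in the KO (2 of 8 higher), and Schwann cell and nerve markers summed to 143 to 156 and 135 to 152 (4 of 9 higher, 1 lower). General adipocyte markers summed to 15400 to 16100 CPM in WT and 11900 to 14400 in the KO, with 6 of 11 called lower and 1 higher. Brown adipocyte markers summed to 10200 to 13400 CPM in WT and 7780 to 8450 in the KO (4 of 9 lower, 1 higher). Skeletal muscle markers summed to 168 to 1070 CPM in WT and 39.5 to 1400 in the KO at room temperature (1 of 15 lower). In the cold they summed to 68.5 to 166 CPM in WT and 43.1 to 302 in the KO. The 2 muscle-rich libraries were KO replicate 6 (1400 CPM) and WT replicate 2 (1070 CPM), both at room temperature. The part of these cell types in the rises of Fads1, Fads2, Fads3, Elovl1 and Elovl5 was not tested. In bulk tissue, fewer cells of a type and less RNA per cell cannot be told apart.

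The same comparison in the cold asked whether the set differed by genotype in tissue that had to make heat. The 5 genes that were higher in the KO at room temperature were higher in the cold too, and Scd2 joined them with the largest rise, 3.05-fold. Elovl4, Elovl6 and Elovl7 were lower in the KO, at 1.88-fold, 1.24-fold and 2.60-fold. These were 6 of 10 genes called higher and 3 called lower, where 25.9% of all tested genes were called higher and 27.8% lower. The median log2 fold change was 0.48 for the 10 and 0.01 for all genes. Elovl7 reached the filter's level only through WT in the cold, so its low value against that group was favoured by the filter, and its call is a description.

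Scd2 stood at 34.7, 33.4 and 34.4 CPM in the cold WT pools and at 106, 103 and 103 in the cold KO pools. The pools of each genotype were nearly alike, and the groups lay far apart. The log2 fold change was 1.61 ± 0.43 (adjusted p = 0.012), with a standard error that reflects the spread of the WT pools at room temperature in the common fit, and without WT room temperature replicate 1 it was 1.62 (adjusted p = 4.5e-10). Scd1 went the other way, at 37400 to 47100 CPM in WT and 27100 to 31200 in the KO (log2 -0.53, adjusted p = 0.0050). Scd2 counts were 0.0737 to 0.0894% of Scd1 counts in the cold WT pools and 0.331 to 0.393% in the cold KO pools. With libraries scaled by totals alone Scd1 lost its call (log2 -0.09, adjusted p = 0.61).

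The 3 Fads genes were higher in the KO in the cold as well. Fads1 stood at 7.35, 7.31 and 7.52 CPM in WT and at 12.3, 13.6 and 12.8 in the KO. Fads2 stood at 5.21, 5.76 and 6.67 CPM against 8.32, 10.4 and 11.6. Fads3 stood at 17.1, 15.4 and 14.2 CPM against 19.9, 21.0 and 26.9. Each KO pool again lay above each WT pool, with the narrowest gap for Fads3. The log2 fold changes were 0.80 ± 0.10 for Fads1 (adjusted p = 1e-05), 0.78 ± 0.18 for Fads2 (adjusted p = 0.0017) and 0.54 ± 0.14 for Fads3 (adjusted p = 0.0046).

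Elovl1 stood at 10.6, 9.71 and 9.76 CPM in the cold WT pools and at 13.4, 14.1 and 14.5 in the cold KO pools (log2 0.48 ± 0.09, adjusted p = 0.00045). Elovl5 stood at 123, 118 and 130 CPM against 179, 185 and 151 (log2 0.47 ± 0.11, adjusted p = 0.0020). The groups of both genes were apart, and the 6 rises held under every alternative setting and with each library left out.

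Elovl6 stood at 1330, 1220 and 1370 CPM in WT and at 1060, 1160 and 939 in the KO. Elovl4 stood at 4.09, 5.72 and 4.28 CPM against 3.97, 2.12 and 1.36. Elovl7 stood at 0.525, 0.771 and 0.521 CPM against 0.329, 0.136 and 0.216. Every KO pool lay below every WT pool for the 3 genes, although KO replicate 1 came close to the WT pools for Elovl4. The log2 fold changes were -0.32 ± 0.10 for Elovl6 (adjusted p = 0.016), -0.91 ± 0.29 for Elovl4 (adjusted p = 0.015) and -1.38 ± 0.42 for Elovl7 (adjusted p = 0.010).

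These 3 falls were less firm than the rises. Elovl6 was no longer called without WT replicate 3 (log2 -0.27, adjusted p = 0.064) or KO replicate 3 (-0.24, 0.081), Elovl4 without WT replicate 2 (-0.74, 0.075), KO replicate 2 (-0.80, 0.063) or KO replicate 3 (-0.62, 0.062), and Elovl7 without WT replicate 2 (-1.17, 0.056) or KO replicate 2 (-1.12, 0.056). With libraries scaled by totals alone, where the median gene moved by 0.449, all 3 falls lost their calls and Elovl6 turned to 0.13. Elovl4 was also not called when only the 6 cold libraries were fitted (-0.86, 0.070). Elovl3 did not pass. It stood at 346, 343 and 392 CPM in WT and at 378, 351 and 188 in the KO, where KO replicate 3 alone was low. Its log2 difference was -0.24 ± 0.33 (adjusted p = 0.57), and 0.01 without that pool.

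**Figure D3:**
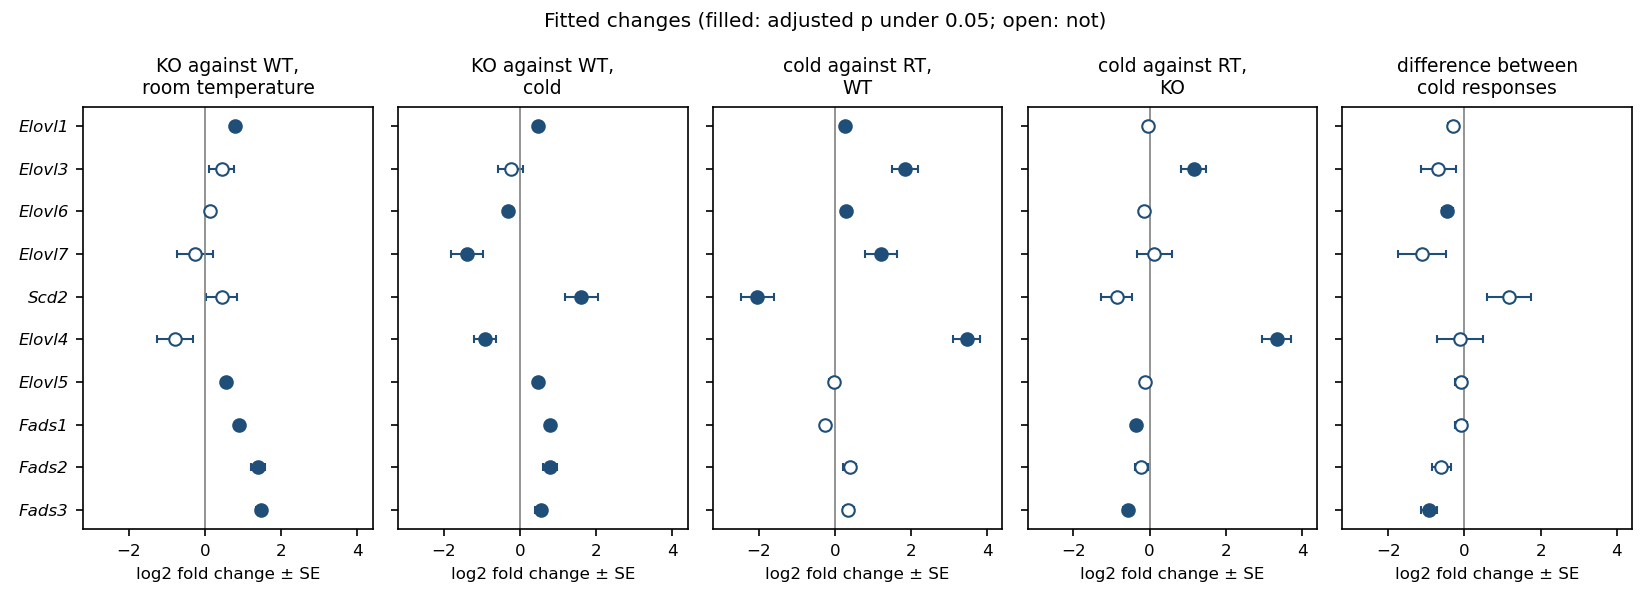
Fitted log2 fold changes of the 10 genes with their standard errors in the 5 comparisons; filled points have an adjusted p under 0.05. The Fads genes, Elovl1 and Elovl5 are filled to the right of 0 for KO against WT at both temperatures, Elovl4 stands at 3.46 and 3.34 for cold, and only Elovl6 and Fads3 are filled for the difference between the cold responses.

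In the pathway around the set, 6 of 9 supply genes of fatty acid synthesis were higher in the cold KO and none lower, with a median log2 fold change of 0.65. Of all tested genes, 25.9% were called higher and 27.8% lower. ATP citrate lyase Acly, which makes cytosolic acetyl-CoA, stood at 360 to 551 CPM in WT and at 1500 to 1860 in the KO (log2 1.83, adjusted p = 0.0025). Acetyl-CoA carboxylase Acaca (0.65), the lipogenic regulator Thrsp (1.36) and Me1 (1.43) were also higher. Srebf1 had a log2 difference of 0.03 (adjusted p = 0.93). Of the 14 regulators, 2 were higher, Insig1 (0.88), which holds SREBPs in the endoplasmic reticulum, and Mylip (1.54), and 5 were lower, among them Srebf2 (-0.83) and Nr1h3 (-0.70).

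Of the 6 partners of the elongation cycle, 3 were lower and 1 higher in the cold KO. For this and the counts that follow, 25.9% of all tested genes were higher and 27.8% lower. The dehydratase Hacd2 stood at 553 to 580 CPM in WT and 238 to 284 in the KO (log2 -1.08, adjusted p = 3.5e-06), with 32 exon bases overlapped by an antisense gene, and Hacd3 had -0.55. Of 4 ceramide synthases tested, which join a fatty acyl chain to a sphingoid base, 3 were higher, with Cers5 at 0.71 and Cers6 at 1.87. Cers4, also higher, stood at 4.99 to 6.7 CPM in WT and at 10.4 to 11.5 in the KO, with exons overlapped by other genes. Cers2, the synthase of very long chains, which was named after its values were seen, was not called (log2 -0.13 ± 0.07, adjusted p = 0.13, exons overlapped by other genes). Of the 11 peroxisomal genes, 3 were higher and 5 lower, and the 2 transporters of very long chains went apart, with Abcd2 at 1.79 and Abcd3 at -0.80. Of the 8 enzymes of acyl-chain exchange, 3 were higher and 4 lower, with Lpcat1 at 1.0, Lpcat2 at 1.60 and Agpat3 at -0.90. The electron donors gave 1 higher and 1 lower of 5, with Cyb5r4 at -0.74. Hacd3 lost its call with libraries scaled by totals alone (-0.11).

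Markers of other cell types moved with genotype in the cold as well, where 25.9% of all tested genes were higher and 27.8% lower. Beside the macrophage markers, lymphocyte markers summed to 1.35 to 2.12 CPM in WT and 4.16 to 4.83 in the KO (5 of 8 higher), and smooth muscle and pericyte markers to 479 to 485 and 652 to 760 (6 of 8 higher). Endothelial markers summed to 675 to 687 CPM in WT and 739 to 878 in the KO (6 of 9 higher, 1 lower), and fibroblast and preadipocyte markers to 415 to 570 and 497 to 682 (5 of 9 higher). Schwann cell and nerve markers had 5 of 9 higher and 2 lower, while their sum was 186 to 199 CPM in WT and 175 to 184 in the KO. Brown adipocyte markers summed to 22600 to 25900 CPM in WT and 8050 to 8990 in the KO. Of these, 6 of 9 were lower, with a median log2 fold change of -1.02. General adipocyte markers summed to 13900 to 14100 CPM in WT and 12000 to 12800 in the KO. Of these, 3 of 11 were lower and 1 higher, with a median of -0.08. The part of these in the member differences in the cold was not tested.

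**Figure D4:**
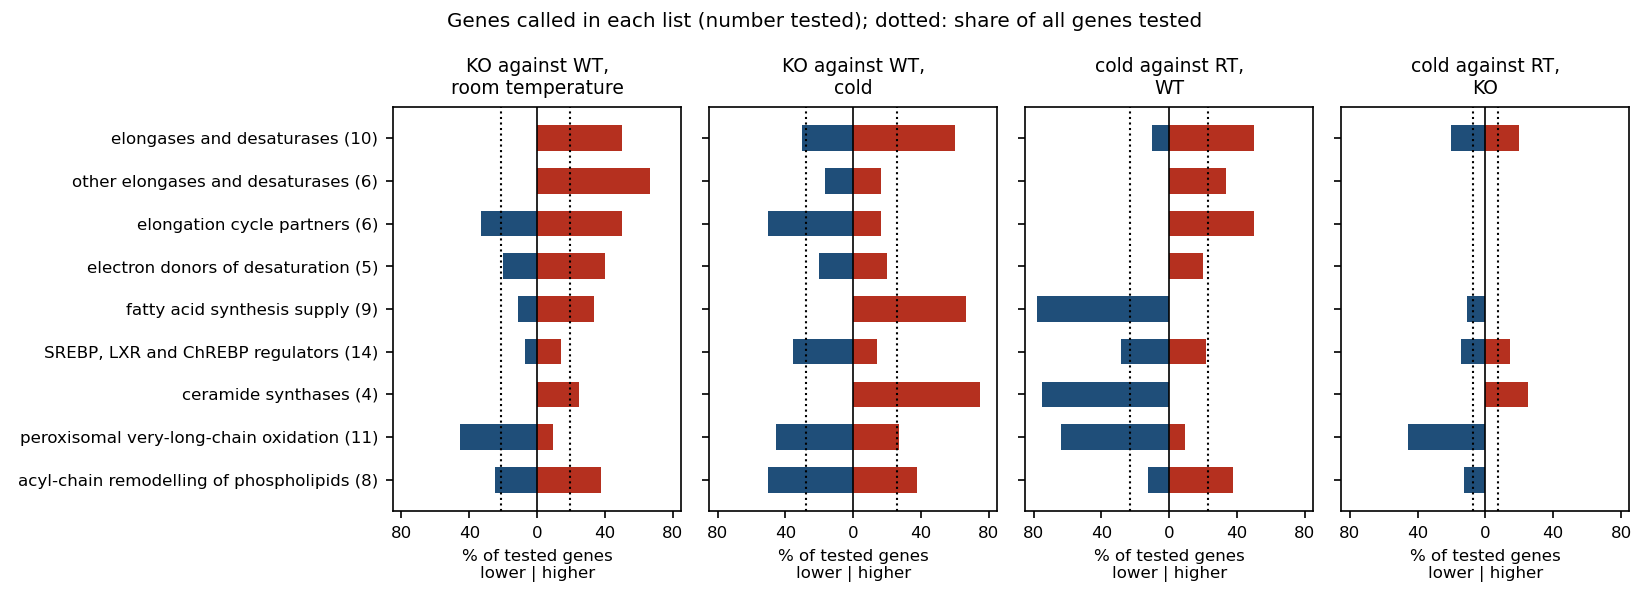
Share of the tested genes of each list called higher (right) or lower (left) in the 4 pairwise comparisons, with the number tested in brackets and the share of all tested genes as dotted lines. The 9 supply genes of fatty acid synthesis have 7 lower with cold in WT and 6 higher in the KO in the cold.

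In WT, 6 h of cold changed the set in an uneven way. Elovl4 rose 11-fold and Elovl3 3.59-fold, while Scd2 fell 4.08-fold. Elovl6, Elovl1 and Elovl7 rose by less, at 1.24-fold, 1.2-fold and 2.33-fold. These were 5 of 10 genes called higher and 1 called lower, where 23.0% of all tested genes were called higher and 23.2% lower. The median log2 fold change was 0.33 for the 10 and -0.03 for all genes. For Elovl7, the same favour by the filter applies.

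Elovl4, known from retina, brain and skin for chains beyond the reach of the other elongases, rose from 0.498, 0.455 and 0.327 CPM to 4.09, 5.72 and 4.28, or from 12 to 16 counts per pool to 109 to 126. Elovl3 rose from 130, 72.3 and 99.2 CPM to 346, 343 and 392. The groups lay far apart for both, and the log2 fold changes were 3.46 ± 0.35 for Elovl4 (adjusted p = 1e-06) and 1.84 ± 0.34 for Elovl3 (adjusted p = 0.0020). Both calls held under every alternative setting and with each library left out. The 250 bases before the start of Elovl4, the member with the largest change with cold, are given from the same RefSeq table with the same marking, where the capitals are 2 GC boxes at -14 and -9 that share bases.
Elovl4 (chr9:83806306-83806555, minus strand): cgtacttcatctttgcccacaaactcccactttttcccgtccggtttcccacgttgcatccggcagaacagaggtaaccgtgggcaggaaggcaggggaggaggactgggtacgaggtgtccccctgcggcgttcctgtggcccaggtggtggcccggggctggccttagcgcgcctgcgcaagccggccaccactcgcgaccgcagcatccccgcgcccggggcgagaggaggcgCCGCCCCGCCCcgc
None of TCACNCCAC, TGACGTCA, CACGTG and CCAAT was found in this window.

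Scd2 fell in WT from 48.4, 172 and 197 CPM to 34.7, 33.4 and 34.4. All cold pools lay below all pools at room temperature, and replicate 1 at room temperature was closest to them. The log2 fold change was -2.03 ± 0.43 (adjusted p = 0.0048), -2.43 without that replicate (adjusted p = 9.5e-12), and -2.03 with adjusted p = 0.051 when only the 6 WT libraries were fitted. The same pool also stood apart in lipogenic genes. Summed supply genes were 14400 CPM in WT replicate 1 at room temperature against 21100 and 20500 in replicates 2 and 3, and Acly was 637 CPM against 1660 and 1850. Its summed brown adipocyte markers were 13400 CPM against 10200 in each of the other 2, and its counts with several alignments were the highest of all libraries at 30.25%. The part of these in its low Scd2 was not tested.

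**Figure D5:**
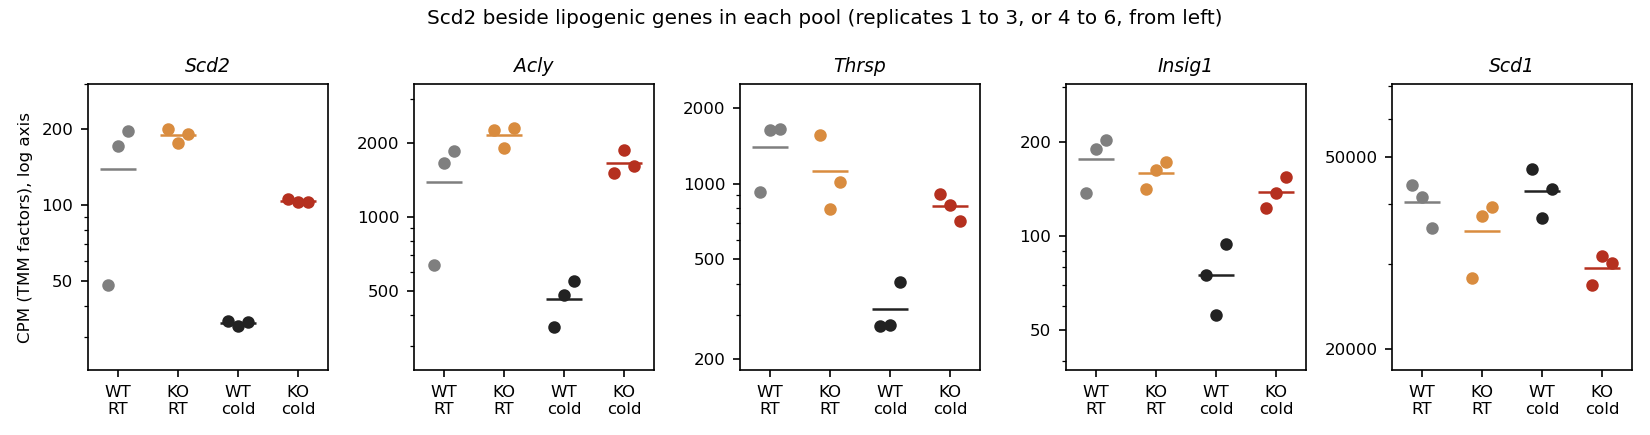
CPM of Scd2 beside Acly, Thrsp, Insig1 and Scd1 in the 12 pools on log axes; points run from left to right by replicate number and lines are means of 3 pools. WT replicate 1 at room temperature is the lowest of its group for Scd2 (48.4), Acly (637), Thrsp (928) and Insig1 (138), and the highest for Scd1 (43800).

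The smaller rises with cold in WT depended on single libraries. Elovl6 went from 970 to 1160 CPM at room temperature to 1220 to 1370 in the cold (log2 0.30 ± 0.10, adjusted p = 0.021), and its call ended without WT replicate 3 at room temperature (0.24, 0.11), cold replicate 1 (0.29, 0.063) or cold replicate 3 (0.27, 0.074). Elovl1 went from 8.31 to 8.52 CPM to 9.71 to 10.6 (log2 0.26 ± 0.10, adjusted p = 0.037), and its call ended without any single WT library or KO cold replicate 2 (log2 0.22 to 0.28, adjusted p 0.051 to 0.13), with no filter on low counts (0.23, 0.22), with only the 6 WT libraries fitted (0.25, 0.065) and without the muscle-rich libraries (0.25, 0.11). Elovl7 went from 7 to 11 counts per pool to 14 to 17 (log2 1.22 ± 0.42, adjusted p = 0.024), and its call ended without WT replicate 2 of either condition (1.06 at room temperature and 1.02 in the cold, adjusted p 0.094 and 0.10), without the muscle-rich libraries (1.06, 0.098) and by DESeq2 (1.25, 0.050). Scaled by totals alone, where the median gene moved to -0.227, the 3 rises lost their calls and 2 members were called higher and 2 lower.

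The Fads genes and Elovl5 were not called with cold in WT. Fads1 was lower in each cold pool, at 7.31 to 7.52 CPM against 8.79 to 8.89 (log2 -0.26 ± 0.11, adjusted p = 0.058), and was called without KO room temperature replicate 4 (adjusted p = 0.038), with the stricter filter (0.035) and with libraries scaled by totals alone (-0.45, 0.0088). Fads2 at 5.21 to 6.67 CPM and Fads3 at 14.2 to 17.1 lay above all their pools at room temperature (log2 0.39 ± 0.18, adjusted p = 0.093, and 0.36 ± 0.14, adjusted p = 0.053). Both were called when only the 6 WT libraries were fitted (adjusted p = 0.049 and 0.013) and without KO room temperature replicate 4 (0.035 and 0.033), and Fads3 also without KO room temperature replicate 5 (0.018), KO cold replicate 1 (0.050) or KO cold replicate 3 (0.031) and with no filter on low counts (0.018). Elovl5 pools of both conditions overlapped, with a log2 difference of -0.03 ± 0.11 (adjusted p = 0.84).

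The supply genes of fatty acid synthesis fell in WT with cold, 7 of 9, with a median log2 fold change of -0.58, and Scd2 fell beside them. Of all tested genes, 23.0% were called higher and 23.2% lower. Thrsp fell by 2.15, Acly by 1.57 and Acaca by 0.58 on the log2 scale. Srebf1 fell from 193 to 338 CPM to 74.1 to 80.8 (log2 -1.82, adjusted p = 0.00046). Of the 14 regulators, 4 fell, among them Mlxipl (-1.17), the gene of ChREBP, and Insig1 (-1.24), and 3 rose, with Srebf2 at 0.51. Scd1 had a log2 difference of 0.08 (adjusted p = 0.68), so it did not fall with Srebf1 by this test. In the elongation cycle 3 of 6 partners rose, with Hacd2 at 1.22 and Hsd17b12 at 0.47. Of 4 ceramide synthases 3 fell, with Cers5 at -0.58, and of 11 peroxisomal genes 7 fell, with Abcd2 at -2.11 and Abcd3 at -0.54. Acly was not called when only the 6 WT libraries were fitted (adjusted p = 0.056).

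In the KO, the 2 genes with the largest rises with cold in WT rose again. Elovl4 went from 0.301, 0.222 and 0.196 CPM to 3.97, 2.12 and 1.36, which is 10.2-fold, and Elovl3 from 189, 107 and 114 CPM to 378, 351 and 188, which is 2.24-fold. Fads3 and Fads1 fell 1.49-fold and 1.27-fold. These were 2 of 10 genes called higher and 2 called lower, where 7.29% of all tested genes were called higher and 7.56% lower. The median log2 fold change was -0.13 for the 10 and -0.02 for all genes. The number of members called fell from 4 to 2 without KO room temperature replicate 6 and to 1 without KO cold replicate 1 or 2.

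For Elovl4 the cold KO pools spread from 1.36 to 3.97 CPM and stayed above the pools at room temperature, and the log2 fold change was 3.34 ± 0.38 (adjusted p = 3.4e-05) with the call held in every alternative. For Elovl3 the groups met, since KO cold replicate 3 had 188 CPM and KO room temperature replicate 4 had 189. Its log2 fold change of 1.16 ± 0.33 (adjusted p = 0.048) lay at the threshold. The call ended without WT room temperature replicate 3, any WT cold replicate, KO room temperature replicate 5 or 6, or KO cold replicate 1 or 2 (log2 0.98 to 1.18, adjusted p 0.065 to 0.16), without the muscle-rich libraries (1.05, 0.14) and with only the 6 KO libraries fitted (1.18, 0.13).

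Fads3 fell in the KO from 27.9, 41.7 and 31.4 CPM to 19.9, 21.0 and 26.9 (log2 -0.57 ± 0.14, adjusted p = 0.011), and its groups came close without meeting. Its call ended without KO cold replicate 1 (-0.49, 0.063) or 2 (-0.53, 0.056) and with only the 6 KO libraries fitted (-0.56, 0.051). Fads1 fell from 14.4 to 18.4 CPM to 12.3 to 13.6 (log2 -0.35 ± 0.10, adjusted p = 0.027), and the call was lost without replicate 6 of the KO at room temperature (-0.26, 0.16) or any KO cold replicate (-0.31 to -0.39, adjusted p 0.055 to 0.11). Fads1 was also not called with libraries scaled by totals alone, with no filter, with only the KO libraries fitted or without the muscle-rich libraries (-0.26 to -0.33, adjusted p 0.062 to 0.19). Scd2 went from 176 to 200 CPM to 103 to 106, and every cold pool lay below every pool at room temperature. Its log2 difference of -0.86 ± 0.41 did not pass (adjusted p = 0.21) and passed without WT room temperature replicate 1 (-0.84, adjusted p = 2.4e-06), with only the KO libraries fitted (-0.84, 7.3e-05), with no filter (-0.84, 4.4e-14) and by limma voom (-0.86, 0.023). These were 4 of 21 alternatives. Elovl1 (-0.04), Elovl5 (-0.11), Elovl6 (-0.15), Elovl7 (0.12) and Fads2 (-0.22) were not called, with standard errors of 0.09, 0.11, 0.10, 0.46 and 0.17.

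Srebf1 fell with cold in the KO too, from 157 to 319 CPM to 71.1 to 85.5 (log2 -1.51, adjusted p = 0.0061), and Mlxipl fell by 1.07 on the log2 scale. Of the 11 peroxisomal genes 5 fell, with Abcd3 at -0.60, where 7.56% of all tested genes were called lower.

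The difference between the cold responses of KO and WT asked which members responded to cold unequally in the 2 genotypes. Fads3 and Elovl6 passed, both with the lower response in the KO. These were 2 of 10 genes, where 12.9% of all tested genes were called with a lower and 10.6% with a higher response in the KO. The median log2 difference was -0.38 for the 10 and 0.01 for all genes. No member was called with a higher response by edgeR or DESeq2, or at an unadjusted p under 0.05, and 1, Scd2, was by limma voom (1.25, adjusted p = 0.020) and by edgeR with no filter on low counts (1.22, adjusted p = 1.1e-14).

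For Fads3 the log2 change with cold was 0.36 ± 0.14 in WT and -0.57 ± 0.14 in the KO, a difference of -0.93 ± 0.20 (adjusted p = 0.0037) that held under every alternative and with each library left out. Its means thus moved from 12.1 to 15.6 CPM in WT and from 33.7 to 22.6 CPM in the KO. For Elovl6 the changes were 0.30 in WT and -0.15 in the KO, a difference of -0.45 ± 0.14 (adjusted p = 0.031). That call ended without WT room temperature replicate 3, KO room temperature replicate 5 or 6, WT cold replicate 1 or 3, or KO cold replicate 1 or 3 (log2 -0.38 to -0.46, adjusted p 0.057 to 0.10), with libraries scaled by totals alone (-0.23, 0.42), with no filter on low counts (-0.41, 0.072), or without the muscle-rich libraries (-0.49, 0.063).

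The response of Scd2 differed by 1.17 ± 0.58 (adjusted p = 0.19), since cold changed it by -2.03 in WT and -0.86 in the KO. Without WT room temperature replicate 1 the difference was 1.59 (adjusted p = 2.6e-07). Over the 20 alternatives the difference ran from 0.85 to 1.59 with adjusted p up to 0.42, and 3 called it. That pool was picked out by its Scd2 level, so leaving it out narrows the spread of Scd2 by choice, here and in the comparisons above. The response of Fads2 differed by -0.61 ± 0.25 (adjusted p = 0.089), and by -0.81 (adjusted p = 0.0098) without KO room temperature replicate 4, and it was called with no filter (-0.57, 0.047) and by limma voom (-0.68, 0.042). For Elovl3 the difference was -0.68 ± 0.46 (adjusted p = 0.34, and 0.00038 with no filter) and for Elovl7 -1.11 ± 0.63 (adjusted p = 0.22), with wide errors. For Elovl4 it was -0.12 ± 0.60, for Elovl1 -0.30 ± 0.13 (called by limma voom, -0.33, adjusted p = 0.035), for Elovl5 -0.08 ± 0.16 and for Fads1 -0.09 ± 0.15. Summed brown adipocyte markers went from 10200 to 13400 CPM to 22600 to 25900 with cold in WT. In the KO they went from 7780 to 8450 to 8050 to 8990. Ucp1 was the largest part of the sum in WT, and its mean there went from 7310 to 16100 CPM. By gene, 4 of 9 of these markers were called higher with cold in WT and 2 lower, with a median log2 fold change of 0.08. Of all tested genes, 23.0% were called higher and 23.2% lower. The part of these markers in the responses was not tested.

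Among genes whose log2 CPM averaged 3 or more, the 3 with levels most like Fads3 over the 12 pools were Sncg (Pearson r = 0.966), Slc6a6 (0.943) and Cmtm3 (0.943), and the 3 most like Elovl6 were Dffa (0.889), Ddhd2 (0.887) and Sec23b (0.884). These describe 7783 genes over pools that share their groups and scaling.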

How the data were processed

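The deposited values were raw read counts per Ensembl gene, in 1 file for each of 12 pools. The authors' tools were STAR and HTSeq on genome build GRCm38, per the submitters' processing notes, which give no versions. File names refer to a reverse strand setting, but kit and setting are stated nowhere else in the sources used here, and named genes whose exons overlap those of another gene are therefore called uncertain. HTSeq's summary lines did not enter library sizes. Reads with several alignments made up 26.6 to 30.2% of all lines, reads outside genes 1.64 to 2.26%, ambiguous reads 1.07 to 1.37% and unaligned reads 1.12 to 1.86%. A GRCm38 annotation (GENCODE) named 53274 of the 53379 IDs and gave positions and merged exon lengths.

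The counts were analysed with edgeR 4.0.16 in R 4.3.3. filterByExpr by group left 15208 genes and took out 38171, which for a library of median size means a CPM of 0.318 in 3 libraries. After TMM scaling, all 12 libraries entered 1 robust quasi-likelihood fit with a mean for each group. The common biological coefficient of variation came to 13.6%. Adjusted p-values are Benjamini-Hochberg over the genes tested, with a threshold of 0.05. Standard errors were taken as the log2 fold change over the root of its F statistic, and fold changes used a prior count of 0.125. Adjusted p given for an alternative come from its own fit. The procedure was tested on simulated counts for KO against WT at room temperature, with the same dispersion for every gene. Small changes, changed genes of low level, genes of wide spread and the other comparisons were not covered.

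The members and gene lists were chosen with earlier results of these data known, and no list was tested as a set. Named were all members, Scd1, Srebf1, Ucp1 and Cdk7, up to 4 genes of each list with the smallest p per comparison, and for members that passed the difference between the cold responses the 3 genes of highest correlation. Alternatives were median-ratio size factors, library totals alone, no filter, a stricter filter (6 libraries with a CPM of 1 or more), DESeq2 1.42.0 (Wald test), limma voom (limma 3.58.1), only the libraries compared, a block for the replicate number, mitochondrially encoded genes dropped before scaling, the 2 libraries richest in skeletal muscle markers left out, and each library left out in turn. Promoter sequences are RefSeq's (GRCm38.p6). No protein sequences were used here.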

Additional observations from a re-analysis of the deposited data

Results flagged for a closer look

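For 2 of the elongases and desaturases and 18 genes of the surrounding pathway, the response to cold differed between the genotypes by the test of the difference itself (edgeR, adjusted p under 0.05). These were 2 of 10 members, both with the lower response in the KO. Of 63 tested pathway genes, 7 had the higher and 11 the lower response in the KO. Over all tested genes, 10.6% had a higher and 12.9% a lower response, each a share for 1 direction. The genes are listed singly, and no list was tested as a set. The values are log2 differences, the change with cold in the KO minus that in WT. Fads3 had -0.93 ± 0.20 (SE) and Elovl6 -0.45 ± 0.14, a call for Elovl6 that 10 of 20 alternatives did not keep.

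In the elongation cycle, the dehydratase Hacd2 had -0.98 ± 0.18 and the enoyl reductase Tecr -0.76 ± 0.20. Among electron donors, Cyb5r1 had -0.39 ± 0.13 and Cyb5r4 -0.37 ± 0.11. In lipid synthesis and its regulation, Thrsp had 1.69 ± 0.43, Insig1 1.04 ± 0.27 and Mylip 0.66 ± 0.21, while Srebf2 had -0.74 ± 0.13, the LXR-beta gene Nr1h2 -0.70 ± 0.15 and Mlx -1.01 ± 0.13. Mlx is the partner of ChREBP.

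Among enzymes that use the products, the ceramide synthases Cers5 and Cers6 had 0.59 ± 0.12 and 1.70 ± 0.39. Of the peroxisomal genes, the transporter Abcd2 had 1.87 ± 0.24 and Slc27a2 -0.66 ± 0.20. Of the enzymes of acyl-chain exchange, Lpcat1 had 0.91 ± 0.21, Lpcat4 -1.0 ± 0.24, Mboat7 -0.50 ± 0.13 and Lclat1 -2.97 ± 0.39. Exons of Elovl6, Hacd2, Mlx, Slc27a2 and Mboat7 overlap those of another gene, and their values are uncertain. Lclat1, a cardiolipin and phosphoinositide acyltransferase, stood at 50.7 to 94.1 CPM in WT at room temperature, 325 to 479 in WT in the cold, 124 to 213 in the KO at room temperature and 119 to 150 in the KO in the cold. Without the 2 libraries richest in skeletal muscle markers, Tecr, Cyb5r1, Cyb5r4, Thrsp, Insig1, Mylip and Slc27a2 were no longer called (adjusted p 0.058 to 0.13), nor was Elovl6 (0.063).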

How the results depend on the processing

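The 5 rises at room temperature, the 6 rises in the cold KO, the rises of Elovl3 and Elovl4 with cold in WT and of Elovl4 in the KO, and the difference for Fads3 kept direction and call under every alternative run. With each library left out, the number of members called ranged from 1 to 5 for cold in the KO (4 as reported) and from 1 to 3 for the difference between the cold responses (2 as reported). For cold in the KO it was 2 when only the libraries compared were fitted and 2 without the 2 muscle-rich libraries. For the difference it was 1 with library totals, 4 with no filter, 5 with limma voom and 1 without the muscle-rich libraries.

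Scaling by library totals alone moved the median gene to 0.218, 0.449, -0.227, 0.0032 and 0.235 in the 5 comparisons in the order given and the members called higher and lower to 6 and 0, 6 and 0, 2 and 2, 2 and 1, and 0 and 1. Under it these values changed sign: Scd1 at room temperature (0.02) and with cold in WT (-0.11), and Elovl3 (0.22) and Elovl6 (0.13) in the cold KO. For the difference, Elovl4, Elovl5 and Fads1 also changed sign (0.13 each). None of these was called under library totals. In the main fit Elovl6 in the cold KO was called lower (edgeR, log2 -0.32, adjusted p = 0.016), and the others were not called. Over all genes the split in the cold went from 3939 higher and 4222 lower to 7881 and 1073, at room temperature to 4739 and 1267, for cold in WT to 1826 and 4813 and for the difference to 2388 and 711.

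With limma voom Elovl5 with cold in WT was 0.04 and Elovl7 with cold in the KO -0.01. Without the muscle-rich libraries, Elovl1 with cold in the KO was 0.01 and Elovl7 -0.03. With single libraries left out, signs changed within these ranges: Elovl3 (-0.42 to 0.01) and Srebf1 (-0.02 to 0.11) in the cold KO, Elovl5 (-0.15 to 0.12) and Scd1 (-0.01 to 0.16) with cold in WT, Elovl1 (-0.09 to 0.01) and Elovl7 (-0.27 to 0.64) with cold in the KO, and Elovl4 (-0.64 to 0.17) and Elovl5 (-0.22 to 0.04) for the difference. None of these was called. The causes were not tested.

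The counts over all genes called for cold in the KO (1109 higher, 1149 lower) were 1926 and 2166 with limma voom, 801 and 675 with library totals, 586 and 628 without the muscle-rich libraries, 601 and 570 without KO cold replicate 1, 626 and 648 without KO cold replicate 2, and 641 and 687 without KO room temperature replicate 6. Without the muscle-rich libraries the difference between the cold responses fell to 840 and 1063.

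Same-numbered pools had correlations of -0.29 to -0.09 between cold groups and -0.179 to 0.224 in WT, and the main fit did not treat the numbers as pairs. With 3 such pairs in a comparison, this check cannot exclude pairing. With the replicate block, 6 members were higher and 3 lower in the cold KO, and for cold in WT 6 were higher and 0 lower, where Scd2 had -1.82 (adjusted p = 0.15). Elovl7, with 4 to 17 counts per pool, and Elovl4, with 6 to 16 at room temperature, are limited by depth.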
